A study of Rattus norvegicus with 20 samples.

Results

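Solute carriers are membrane proteins that move amino acids, peptides, ions, vitamins and other small molecules across cell membranes, and 11 rat genes of these families were followed in cultured epithelial cells before and after transplantation into skin. The members were all genes whose symbol begins with Slc among the identifiers for which the study's gene lists, as far as they were at hand, give a symbol. They made up 11 of the 32494 genes counted, and all 11 were among the 13302 genes with at least 1 CPM (counts of a gene relative to all counts on genes in its library, scaled by TMM) in any sample, which were tested. Their names come from a list of genes that the study called different from whisker cells in all 4 other tissues, before as well as after transplantation. Differences from whisker cells therefore chose the members and are given here as a description, with no test. For recovered cells the reference of that list appears to be 1st-round whisker cells. Slc1a3 in recovered bladder cells, for example, lay at -1.65 on the log2 scale from these, but at -0.12 from recovered whisker cells. The list also drew on the same samples of the 4 other tissues as the tests below. Slco1a2 in bladder cells lay at -3.14 from 1st-round whisker cells before transplantation and at 1.83 after it. A gene listed on opposite sides of that reference must change between rounds, so p-values of members are not free of the choice. The study's longer gene list was at hand only up to symbols that begin with Fam, so Slc genes named only there could not enter. Neither these nor other solute carrier genes of the rat were analysed here.

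Cells came from EGFP-expressing Sprague-Dawley rats, the transgene being driven by an actin promoter. Bladder dome cells came from a rat at PN201 (PN, postnatal day), tracheal and vaginal cells from PN200, thymic epithelial cells from PN137 and whisker follicle cells from PN57. All cells had been grown on irradiated mouse 3T3-J2 fibroblasts and sorted on EGFP, and RNA was sequenced from cultures before transplantation (1st round) and from cultures recovered from the transplants (2nd round), with 2 samples for each of the 10 groups and 20 samples in all. Whisker cells were a single clone before transplantation and a subclone afterwards, the thymic 1st-round samples carry both a bulk and a clone label, and the other groups are bulk cultures. Thymic and whisker cells came from younger rats than the other tissues, so that for them age and tissue cannot be told apart. The 2 samples of a group may be parallel cultures, so that p-values measure only the spread between these samples, which may be technical.

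In epithelia, transporters of these families set which nutrients and signalling molecules enter a cell. The SLC1 and SLC6 families couple uptake to the sodium gradient, SLC15 members carry short peptides together with protons, SLC43 members let large neutral amino acids pass by facilitated diffusion, and SLC39 members bring zinc and related metals into the cytosol. The 11 members fall into 5 carriers of amino acids and related amines (Slc1a3, Slc6a4, Slc6a6, Slc6a14 and Slc43a2), 1 peptide carrier (Slc15a1), 2 members of inorganic ion families (Slc12a8 and Slc39a11) and 3 carriers of other organic solutes (Slc44a4, Slc45a3 and Slco1a2).

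Windows around 3 gene starts are shown because these amino acid carriers moved in different directions in bladder cells, where Slc6a6 and Slc43a2 rose and Slc6a14 fell. Each runs from 250 bases before to 50 bases after the start of the gene in RefSeq (rat build GRCr8, whereas the reads had been counted on Rnor_6.0), is written 5′ to 3′ on the strand of the gene and has motif matches in capitals. The windows are Slc6a14 at chrX:117144676-117144975 (plus strand), Slc6a6 at chr4:125752252-125752551 (plus strand) and Slc43a2 at chr10:60874588-60874887 (plus strand).
Slc6a14: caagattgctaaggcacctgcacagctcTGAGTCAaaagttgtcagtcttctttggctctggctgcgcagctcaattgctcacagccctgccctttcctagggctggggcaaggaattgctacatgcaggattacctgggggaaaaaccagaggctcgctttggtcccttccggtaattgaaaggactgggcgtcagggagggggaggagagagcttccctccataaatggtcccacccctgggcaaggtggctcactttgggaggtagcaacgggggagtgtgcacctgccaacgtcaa
Slc6a6: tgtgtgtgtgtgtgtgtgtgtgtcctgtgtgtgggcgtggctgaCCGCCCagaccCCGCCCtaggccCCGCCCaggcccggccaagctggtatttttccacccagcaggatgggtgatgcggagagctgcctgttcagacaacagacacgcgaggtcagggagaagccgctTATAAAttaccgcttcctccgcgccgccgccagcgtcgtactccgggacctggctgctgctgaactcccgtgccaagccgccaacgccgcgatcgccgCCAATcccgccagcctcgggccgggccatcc
Slc43a2: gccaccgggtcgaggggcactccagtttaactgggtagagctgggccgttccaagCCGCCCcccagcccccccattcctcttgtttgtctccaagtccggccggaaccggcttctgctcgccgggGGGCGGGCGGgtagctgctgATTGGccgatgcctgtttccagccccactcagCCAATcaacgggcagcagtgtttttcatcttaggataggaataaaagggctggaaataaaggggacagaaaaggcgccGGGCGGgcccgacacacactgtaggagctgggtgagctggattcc
The motifs were searched on both strands. They were the TATA box, spelled TATAAA, then the CCAAT box by those letters, the GC box spelled GGGCGG, the AP-1 site spelled TGANTCA and the E-box spelled CACGTG. The Slc6a14 window held 1 AP-1 site and no other motif of the set. The Slc6a6 window held 1 TATA box, 1 CCAAT box and 3 GC boxes, and the Slc43a2 window held 2 CCAAT boxes and 4 GC boxes, 2 of which overlap. Over all 33469 RefSeq windows of the same length, 14.2% held a TATA box, 37.5% a CCAAT box, 33.1% a GC box, 7.33% an AP-1 site and 6.42% an E-box. Windows were at hand for 9 of the 11 members, of which 5 held a GC box and 1 an AP-1 site. Of the other members that changed in bladder cells, Slc1a3 (higher) held no motif of the set and Slc15a1 (higher) only 1 CCAAT box. Slc44a4 (lower) held 1 CCAAT box and 4 GC boxes, and Slc6a4 and Slco1a2 had no window. A link between motifs and direction of change was not tested. These matches are a description of the letters and not of binding.

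The libraries held 20723083 to 29824855 reads assigned to genes. The floor of detection, taken as 3 reads, corresponds to 0.099 to 0.143 CPM and covers counting error only, whereas the 95% intervals of log2 changes come from the spread between samples in limma voom. The epithelial markers Epcam, Cdh1, Dsp, Dsc3 and Dsg3 together reached 3590 to 12500 CPM in every group. The urothelial genes Upk1b and Foxa1 summed to 266 to 295 CPM in 1st-round and 187 to 193 CPM in recovered bladder cells, but also to 145 to 156 CPM in 1st-round tracheal and 127 to 167 CPM in 1st-round thymic cells. The tracheal and thymic sums were mostly Upk1b. Foxa1 alone was at 51.0 to 128 CPM in bladder cells, 10.9 to 19.9 CPM in tracheal cells and at most 5.35 CPM in the other samples. The whisker gene Tfap2b was at 32.9 to 51.8 CPM in whisker cells, at 8.14 to 8.42 CPM in recovered vaginal cells and at no more than 0.154 CPM in the other samples. The 2 samples of a group differed most in 1st-round thymic and 1st-round bladder cells. The mean chi-square per gene between the 2 samples was 42.9 and 34.5 there and 2.48 to 9.81 in the other groups. The shared spread does not follow such differences, so intervals that involve these 2 groups may be too narrow. Because RNA was measured over whole cultures and not in single cells, fewer cells of a type and less RNA per cell cannot be told apart.

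**Figure D1:**
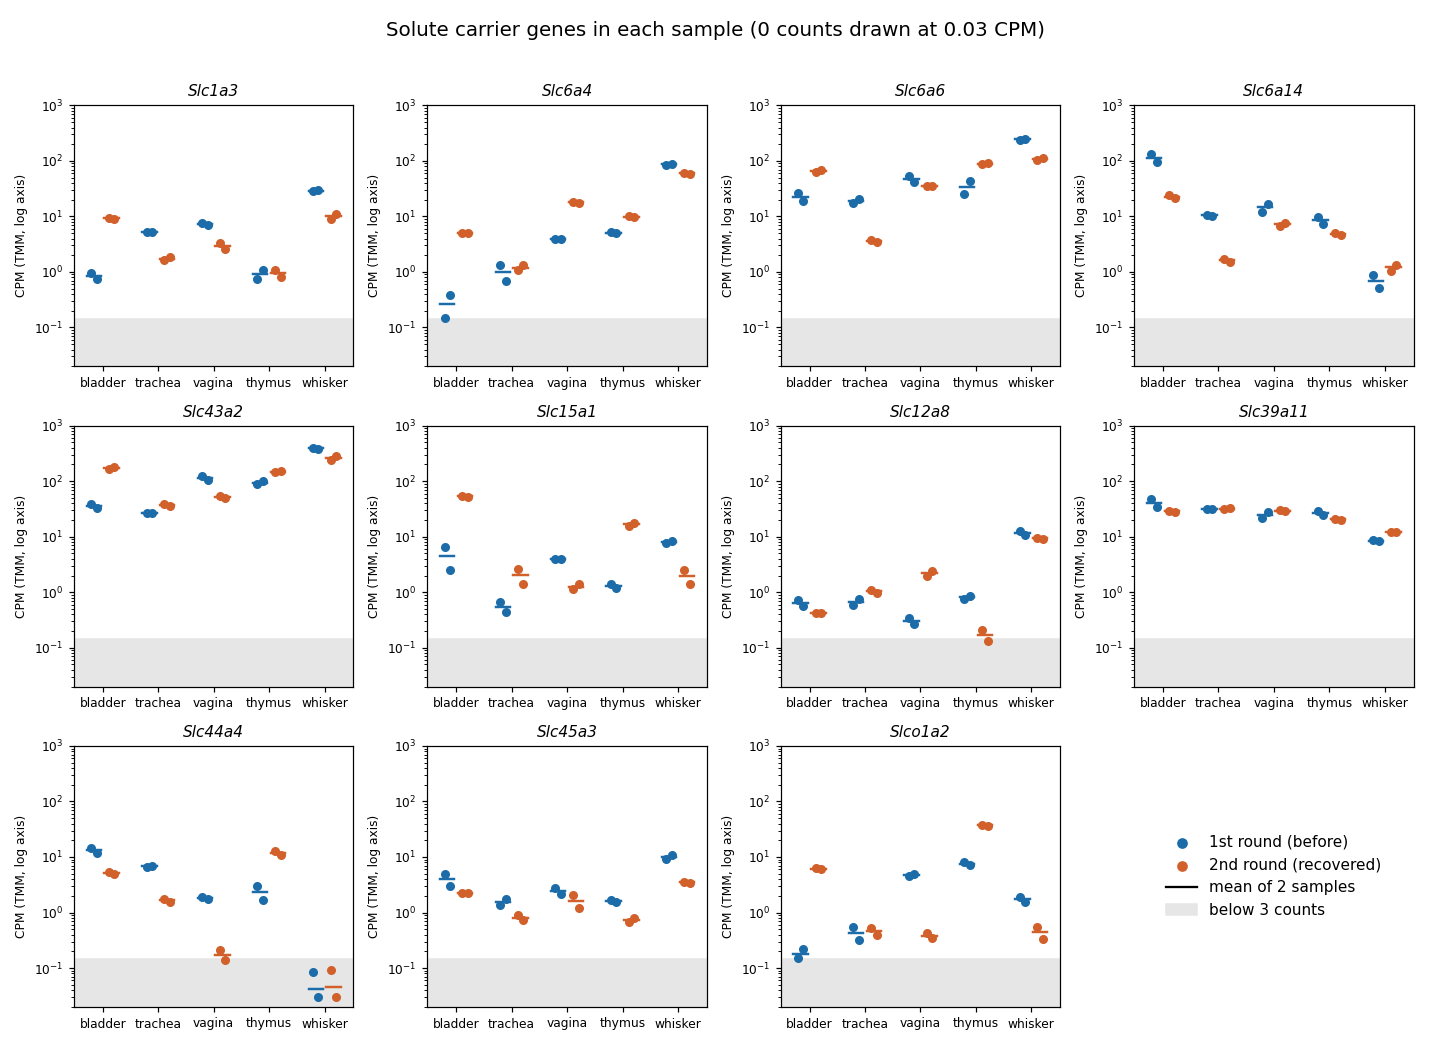
Level of each member in every sample in CPM on a log axis, with 1st-round samples in blue, recovered samples in orange, a line at the mean of each group and the zone below 3 counts in grey. The recovered bladder samples sit above the 1st-round bladder samples for 6 members, and Slc39a11 stays between 19.9 and 47.5 CPM in all samples of the 4 non-hair tissues.

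After transplantation, 8 of the 11 members changed in bladder cells, with 6 higher and 2 lower in recovered cells. A change was called at an adjusted p under 0.05 in limma voom together with a fold of at least 2, and 21.1% of all genes tested passed this rule in bladder cells (10.1% higher and 11.0% lower). In thymic cells 6 members changed, 4 up and 2 down, where 15.4% of all genes did (8.49% up and 6.89% down). Among vaginal cells 7 members changed, 2 up and 5 down, against 11.8% of all genes (4.25% up and 7.53% down). The tracheal cells had 5 changed members, 1 up and 4 down, against 12.4% of all genes (4.39% up and 8.04% down). Over the 4 tissues the members made 26 of 44 possible calls, against 15.2% over all genes. Genes of the list from which the members' names come were also called more often than all genes. Among its 422 other genes, a comparison added after the data had been seen, 45.3% changed in bladder cells, 36.0% in tracheal, 43.8% in vaginal and 47.6% in thymic cells (43.2% over the 4), so the members' shares are not read as particular to transporters.

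The direction of change depended on the tissue for most members. The amino acid group had 4 members up and 1 down in bladder cells, none up and 3 down in tracheal cells, 1 up and 2 down in vaginal cells, and 1 up and none down in thymic cells. Its median log2 change was 2.25 for bladder, -1.59 for trachea, -0.97 for vagina and 0.66 for thymus, whereas the median over all genes lay within 0.017 of 0 in each of them. No median was taken over the other genes of the list, so these values are not read as particular to amino acid carriers. The difference in change between a pair of non-hair tissues passed the same rule in 44 of 66 member comparisons, against 19.4% over all genes and 46.4% over the other genes of the list.

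Slc6a6 (ENSRNOG00000009019), the carrier of taurine, rose in bladder and thymic cells and fell in tracheal cells. It was at 25.9 and 19.1 CPM in 1st-round bladder cells and at 64.4 and 67.5 CPM in recovered ones, a log2 change of 1.56 (95% interval 1.16 to 1.96, adjusted p = 2.89e-06). In thymic cells it went from 25.2 and 43.9 CPM to 87.1 and 91.3 CPM (log2 change 1.43, 1.05 to 1.8, adjusted p = 5.94e-06). In tracheal cells it went from 17.7 and 20.3 CPM to 3.71 and 3.39 CPM (log2 change -2.42, -3.12 to -1.72, adjusted p = 2.6e-05). No sample of one round overlapped the other in these tissues, although the thymic 1st-round samples lay far apart. The thymic log2 change was 1.01 without the first 1st-round sample and 1.81 without the second. Vaginal cells held 53.0 and 41.5 CPM before and 36.0 and 35.6 CPM after, which did not pass the rule (log2 change -0.39, adjusted p = 0.0967). The change in bladder exceeded that in trachea by 3.98 on the log2 scale (3.17 to 4.78), and the changes in bladder and thymus differed by 0.13 (-0.41 to 0.68, adjusted p = 0.697).

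Slc43a2 (ENSRNOG00000003835), a carrier of large neutral amino acids such as leucine and phenylalanine, showed opposite changes in bladder and vaginal cells. Bladder cells held 39.4 and 32.9 CPM before and 167 and 177 CPM after (log2 change 2.25, 2.03 to 2.48, adjusted p = 5.89e-11). Vaginal cells held 126 and 105 CPM before and 54.7 and 50.4 CPM after (log2 change -1.13, -1.35 to -0.91, adjusted p = 2.99e-07). The samples of the 2 rounds were well separated in both tissues. Tracheal cells moved from 27.3 and 27.0 CPM to 38.6 and 36.0 CPM and thymic cells from 89.3 and 99.6 CPM to 145 and 153 CPM. These smaller shifts, 0.46 and 0.66 on the log2 scale, had adjusted p values of 0.00602 and 4.95e-05 but stayed under the fold of 2. The changes in bladder and vagina differed by 3.39 (3.07 to 3.70, adjusted p = 4.57e-11).

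Slc6a14 (ENSRNOG00000005687), a carrier with a wide range that takes up neutral and cationic amino acids, was lower in every recovered non-hair sample than in either 1st-round sample of the same tissue. Bladder cells fell from 131 and 96.0 CPM to 23.9 and 21.4 CPM (log2 change -2.31, -2.63 to -2.0, adjusted p = 2.06e-09). Tracheal cells fell from 10.7 and 10.4 CPM to 1.69 and 1.53 CPM (log2 change -2.70, -3.46 to -1.94, adjusted p = 2.01e-05). The falls in these tissues differed by 0.39 on the log2 scale, with an interval of -0.44 to 1.21 (adjusted p = 0.484). Vaginal cells held 12.1 and 17.1 CPM before and 6.83 and 7.62 CPM after (log2 change -0.97, adjusted p = 0.00178), and thymic cells 9.80 and 7.17 CPM before and 5.05 and 4.59 CPM after (log2 change -0.81, adjusted p = 0.0151). Neither of these reached a fold of 2, although the vaginal fall passed the rule without the first 1st-round sample (-1.25) or the second recovered sample (-1.05), and the thymic fall without the second 1st-round sample (-1.05). Bladder cells had the highest level in both rounds, exceeding each other non-hair tissue by 1.64 to 3.80 on the log2 scale in the 2nd round.

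Slc6a4 (ENSRNOG00000003476), the serotonin transporter, rose in bladder and vaginal cells. It was near the floor in 1st-round bladder cells, at 0.149 and 0.388 CPM, and reached 5.09 and 4.95 CPM in recovered ones (log2 change 4.29, 3.47 to 5.11, adjusted p = 9.47e-08). The change was 3.61 without the first 1st-round bladder sample and 4.91 without the second. In vaginal cells it rose from 3.86 and 3.90 CPM to 18.1 and 17.7 CPM (log2 change 2.20, 1.88 to 2.52, adjusted p = 1.18e-08). Thymic cells went from 5.16 and 5.05 CPM to 10.2 and 9.67 CPM, just under the fold of 2 (log2 change 0.96, adjusted p = 5.75e-05). Tracheal cells held 1.35 and 0.684 CPM before and 1.08 and 1.31 CPM after, so that the rounds overlapped (log2 change 0.31, adjusted p = 0.467).

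Slc1a3 (ENSRNOG00000016163), a glutamate and aspartate transporter best known from glial cells, rose in bladder cells and fell in tracheal and vaginal cells. The bladder samples went from 0.971 and 0.733 CPM to 9.33 and 9.13 CPM (log2 change 3.41, 2.87 to 3.95, adjusted p = 1.16e-08). Tracheal samples went from 5.34 and 5.23 CPM to 1.64 and 1.82 CPM (log2 change -1.59, adjusted p = 2.16e-05), and vaginal samples from 7.76 and 6.91 CPM to 3.35 and 2.61 CPM (log2 change -1.32, adjusted p = 1.48e-05). Before transplantation bladder cells were lower than tracheal and vaginal cells, and after it they were higher than both. The difference between bladder and trachea was -2.61 on the log2 scale before transplantation and 2.39 after it. Thymic cells stayed low, with 0.754 and 1.08 CPM before and 1.10 and 0.825 CPM after (log2 change 0.06, -0.62 to 0.75).

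Slc15a1 (ENSRNOG00000011598), the proton-coupled peptide carrier of the intestinal brush border, changed in all 4 non-hair tissues. Bladder cells rose from 6.42 and 2.5 CPM to 54.0 and 52.5 CPM (log2 change 3.68, 3.15 to 4.21, adjusted p = 3.45e-09), and thymic cells from 1.39 and 1.20 CPM to 15.5 and 17.8 CPM (log2 change 3.67, 2.84 to 4.50, adjusted p = 1.28e-06). The rises in bladder and thymus differed by 0.01 on the log2 scale, with an interval of -0.97 to 1.00. The bladder rise rests on 2 unlike 1st-round samples, and was 4.39 without the first and 3.05 without the second. Tracheal cells rose from 0.654 and 0.443 CPM to 2.63 and 1.39 CPM (log2 change 1.74, 0.48 to 3.00, adjusted p = 0.0277), a call that was lost without the first (log2 change 2.01) or second (1.47) 1st-round sample or the first recovered sample (1.32). Vaginal cells fell from 3.98 and 3.94 CPM to 1.13 and 1.39 CPM (log2 change -1.63, -2.55 to -0.71, adjusted p = 0.00682), which was no longer called without the first recovered sample (log2 change -1.50). The first bladder sample of the 1st round was more than double the second, but both stayed far under the recovered samples.

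Among the members of inorganic ion families, Slc12a8 (ENSRNOG00000001792), which belongs by sequence to the cation-chloride cotransporters, rose in vaginal and fell in thymic cells. The vaginal samples went from 0.344 and 0.266 CPM to 1.97 and 2.40 CPM (log2 change 2.77, 2.03 to 3.50, adjusted p = 1.03e-05), and the thymic samples from 0.754 and 0.870 CPM to 0.212 and 0.132 CPM (log2 change -2.18, -3.08 to -1.28, adjusted p = 0.000524). All of these levels are low, and the recovered thymic samples lie close to the floor. Slc39a11 (ENSRNOG00000031213), a zinc transporter of the ZIP family, made 0 calls in limma voom among the non-hair tissues, in the 4 changes, the 12 tissue pairs and the 6 differences in change. Among the non-hair tissues its largest change was in bladder, from 47.5 and 33.9 CPM to 29.5 and 28.4 CPM (log2 change -0.48, -0.76 to -0.20, adjusted p = 0.00553), and its tracheal levels were 32.1 and 32.1 CPM before and 31.6 and 32.8 CPM after (log2 change 0.01, -0.27 to 0.29).

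Slc44a4 (ENSRNOG00000000878), a carrier of thiamine pyrophosphate from the choline transporter-like family, fell in 3 tissues and rose in thymic cells. Thymic samples rose from 3.02 and 1.70 CPM to 13 and 10.9 CPM (log2 change 2.37, 1.83 to 2.90, adjusted p = 1.12e-06). The bladder samples fell from 14.6 and 11.8 CPM to 5.29 and 4.91 CPM (log2 change -1.37, adjusted p = 1.83e-05), and the tracheal samples from 6.58 and 7.00 CPM to 1.78 and 1.57 CPM (log2 change -2.02, adjusted p = 4.45e-05). In vaginal cells the level went from 1.87 and 1.73 CPM to 0.209 and 0.139 CPM, close to the floor (log2 change -3.28, -4.52 to -2.04, adjusted p = 0.000324). The change in each of the 3 other tissues minus that in thymus ran from -5.64 to -3.74 on the log2 scale, and each of these differences passed the rule.

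Slco1a2 (ENSRNOG00000031249), named as an organic anion uptake carrier, had the widest spread of changes. In bladder cells it went from 0.149 and 0.215 CPM, close to the floor, to 6.33 and 6.07 CPM (log2 change 4.97, 4.16 to 5.78, adjusted p = 1.42e-08). In thymic cells it rose from 8.18 and 7.04 CPM to 37.7 and 36.2 CPM (log2 change 2.28, 2.05 to 2.51, adjusted p = 1.25e-10), and in vaginal cells it fell from 4.55 and 5.01 CPM to 0.419 and 0.348 CPM (log2 change -3.58, -4.25 to -2.92, adjusted p = 1.85e-07). Recovered thymic cells thus held more than any other group, and the tracheal samples stayed between 0.322 and 0.538 CPM in both rounds. RefSeq lists this symbol as another name of both Slco1a4 and Slco1a5, so which gene was measured is uncertain, and reads shared between them were not examined. Slc45a3 (ENSRNOG00000007591), a carrier of the sugar transporter-like SLC45 family, fell in thymic cells from 1.71 and 1.57 CPM to 0.679 and 0.792 CPM (log2 change -1.13, -1.94 to -0.33, adjusted p = 0.0218), a call lost without the first 1st-round sample (log2 change -1.08) or without either recovered sample (-1.06 and -1.27). Its changes in the other non-hair tissues ran from -0.95 to -0.65 on the log2 scale and did not pass the rule, except in bladder without the second 1st-round sample (-1.10).

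Differences between the non-hair tissues were called in 35 of 66 member comparisons before transplantation and in 46 of 66 after it, against 20.7% and 17.6% over all genes and 48.4% and 49.9% over the other genes of the list. In the 2nd round, 10 of the 11 members differed between bladder and tracheal cells, 9 of them higher in bladder, where 18.3% of all genes differed (12.3% higher in bladder). Slc12a8 was the member higher in trachea and Slc39a11 the one not called. The differences of the other 9 ran from 1.49 (Slc45a3) to 4.84 (Slc15a1) on the log2 scale. In the 1st round 5 members differed between these tissues, 3 higher in bladder (Slc6a14, Slc15a1 and Slc45a3) and 2 higher in trachea (Slc1a3 and Slc6a4), where 15.5% of all genes differed (9.94% higher and 5.59% lower in bladder). Recovered trachea and thymus differed in 8 members, 7 of them higher in thymus, where 18.0% of all genes differed (10.4% higher in thymus). Among the other genes of the list, 48.3% differed between recovered bladder and trachea and 37.9% between these tissues in the 1st round. Between recovered trachea and thymus 53.6% of them did. Their directions were not counted, and the members' counts are not read as particular to transporters.

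**Figure D2:**
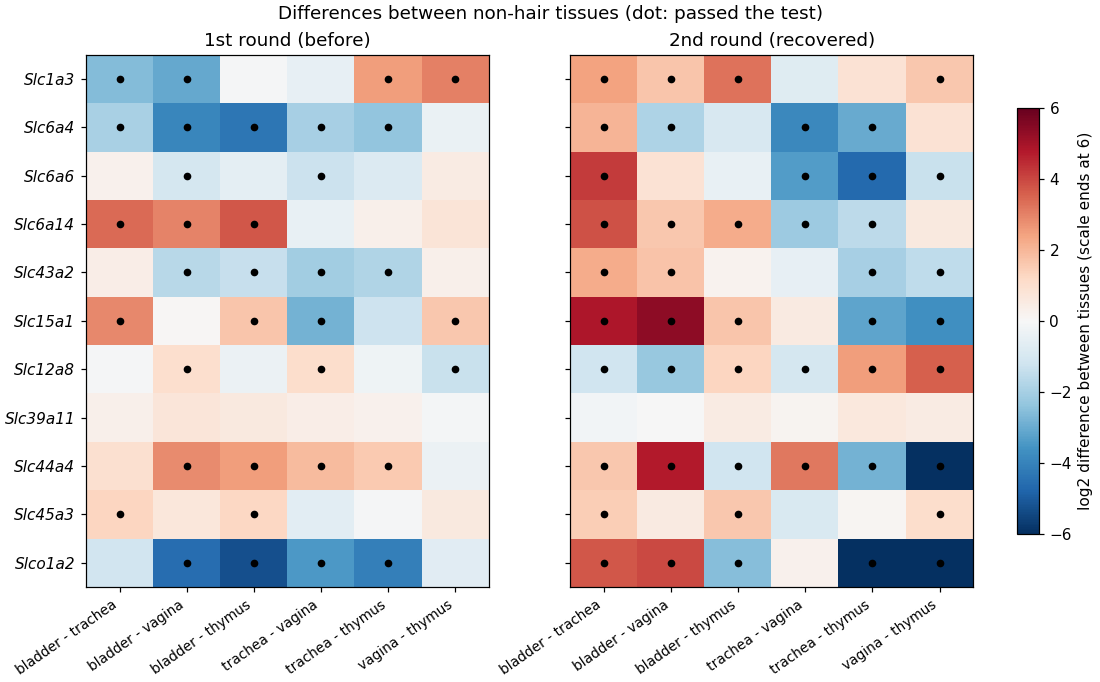
Log2 differences between pairs of non-hair tissues before transplantation (left) and in recovered cells (right), first-named tissue minus second. Red marks higher in the first, blue lower, and a dot a difference that passed the test, of which there were 35 on the left and 46 on the right.

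The level order of the tissues changed for several members. Slc1a3 in the 1st round was higher in vagina and trachea than in thymus and bladder, and the last 2 did not differ (log2 difference -0.08, -0.79 to 0.63). In recovered cells bladder came first, followed by vagina, trachea and thymus, although neither vagina and trachea nor trachea and thymus were separated by the rule. Slco1a2 was highest in thymus in both rounds, though not separated from vagina by the rule in the 1st (log2 difference -0.67, vagina minus thymus), and the next highest was vagina before and bladder after transplantation. Slc6a14 kept bladder first, and in recovered cells vagina and thymus were not separated by the rule (0.59, 0.05 to 1.14, adjusted p = 0.0595). Slc43a2 in recovered cells had bladder and thymus at the top, 0.21 apart (0.00 to 0.41, adjusted p = 0.0925).

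Against whisker cells, whose contrasts chose the members, 6 of the 11 had their highest mean in 1st-round whisker cells (Slc1a3, Slc6a4, Slc6a6, Slc12a8, Slc43a2 and Slc45a3) and 3 their lowest (Slc6a14, Slc39a11 and Slc44a4). In 1st-round whisker cells Slc6a6 was at 234 and 253 CPM, Slc43a2 at 395 and 382 CPM and Slc6a4 at 85.5 and 87.2 CPM. Their recovered whisker samples held 106 and 111, 240 and 281, and 61.3 and 59.2 CPM. Recovered whisker cells were lower than 1st-round ones past the threshold for 5 members (Slc1a3, Slc6a6, Slc15a1, Slc45a3 and Slco1a2), where 5.98% of all genes passed it in either direction and 3.83% in this one, and nothing is read from this count because the 1st-round samples are the reference of the list. Slc44a4 had 2 counts in the 2 whisker samples of each round together, under the floor of 3 counts.

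Genes listed as markers of other cell types moved between the same samples, and their sums hide opposite shifts. Of the 6 fibroblast genes, 5 were lower in both recovered samples of bladder and of tracheal cells, and Col5a2 was higher. Col1a1 went from 176 and 127 CPM to 17.8 and 15.5 CPM in bladder and from 151 and 154 CPM to 25.8 and 25.9 CPM in tracheal cells, and Col3a1 from 65.1 and 56.9 CPM to 8.14 and 7.92 CPM and from 100.4 and 105 CPM to 12.4 and 7.51 CPM. Col5a2, which makes up much of the sum, went from 105 and 104 CPM to 218 and 227 CPM in bladder cells. The sum of the list therefore moved less, from 409 to 471 CPM before to 292 to 294 CPM after in bladder and from 708 to 762 CPM to 520 to 529 CPM in tracheal cells. In thymic cells all 6 fibroblast genes were higher in both recovered samples (sum 453 to 539 CPM before, 602 to 629 CPM after). In vaginal cells the sum rose from 488 to 505 CPM to 725 to 733 CPM, with Col5a1 and Col5a2 higher. Col1a1 (15.9 and 16.5 to 13.7 and 15.5 CPM) and Col3a1 (7.88 and 10.7 to 6.87 and 7.03 CPM) were lower there, and Col6a3 and Dcn overlapped between rounds. The sum was highest in 1st-round whisker cells, a single clone, at 1210 to 1220 CPM, where Col5a2 was at 1092 and 1062 CPM. A higher sum is therefore not read as more fibroblasts.

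The keratins also moved in unlike directions. Krt8, a keratin of simple epithelia, was lower after transplantation in all 4 non-hair tissues, going from 1656 and 1700 CPM to 276 and 281 CPM in bladder and from 411 and 331 CPM to 59.6 and 59.9 CPM in thymic cells. Krt4, a mucosal keratin, was higher in recovered bladder cells (302 and 272 CPM, from 16.2 and 69.6 CPM) and recovered thymic cells (968 and 910 CPM, from 53.2 and 33.5 CPM). It was lower in recovered tracheal and vaginal cells. The vaginal cells lost most of both, since Krt4, Krt8 and Krt18 summed to 903 CPM before and to 22.2 to 22.7 CPM after.

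The 3 immune genes summed to 61.8 to 63.7 CPM before and 18.7 to 21.2 CPM after in vaginal cells, and to 24 to 27.1 CPM and 59.8 to 68.4 CPM in tracheal cells. Both shifts came from Cd68 alone, and Cd74 moved against it. Vaginal cells held Cd74 at 1.41 and 0.975 CPM before and 4.44 and 3.76 CPM after. Tracheal cells held it at 14.6 and 12.6 CPM before and 6.43 and 4.52 CPM after. Cd53 was at no more than 0.282 CPM in these 2 tissues. In bladder cells Cd68 was higher after transplantation, whereas Cd53 and Cd74 were lower. The smooth muscle gene Acta2 went from 1.27 and 1.91 CPM to 16.3 and 15.1 CPM in thymic cells. Upk1b and Foxa1 summed to 39.7 to 43.5 CPM before and 1.57 to 1.68 CPM after in vaginal cells. The part of these shifts in the changes of the transporters was not tested.

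Across the 10 group means, each member was compared with the 1291 other named genes that had at least 10 CPM in at least 1 group. Their names come from the study's lists of genes called against whisker cells, the longer of which was at hand only up to Fam. Genes outside these lists were not compared. The gene most alike was Cpa4 for Slc6a6 (Pearson r = 0.951), Trim63 for Slc43a2 (0.973), Ephb6 for Slc6a4 (0.975), Fam171a1 for Slc6a14 (0.933) and Fam101b for Slc1a3 (0.872). It was Ctsd for Slc15a1 (0.944), Chl1 for Slc12a8 (0.926), Traf3 for Slc39a11 (0.968), Adap1 for Slc44a4 (0.972), Gpr153 for Slc45a3 (0.85) and Cmas for Slco1a2 (0.92). The 10 points share tissues and libraries, and each match is the best of many genes, which make these values descriptions only.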

How the data were processed

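RNA was sequenced from 20 samples. The deposited files hold raw read counts per gene made by the authors, with cutadapt 1.8, STAR 2.5.2b and HTSeq 0.6.1 on Rnor_6.0 named in the submitters' processing notes. Rows that name no gene, which held 41.6 to 46.4% of each file's total, were left out. Counts were scaled by TMM (edgeR 4.0.16) and tested with limma 3.58.1 (voom, R 4.3.3) after dropping genes that reached 1 CPM in no sample, with 10 group means over all 20 samples and Benjamini-Hochberg adjustment over the 13302 genes of each comparison. Exact permutation of 2 against 2 samples cannot give a p under 0.33. DESeq2 1.42.0, edgeR's quasi-likelihood test, other filters and scalings, a stricter fold, a replicate block and leaving out each sample were alternatives. The procedure was run on simulated data with the same spread in all genes and groups and changes only in well-counted genes. It was not tried there on groups of unequal spread or on changes in genes near the floor. The members and lists were chosen with earlier results of these data known. All members are named, and for each the most alike other gene among those with a symbol in the study's lists as far as at hand. The reference tables pair no identifiers of these files with symbols, so the rest of the family was not analysed here.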

Additional observations from a re-analysis of the deposited data

Results flagged for a closer look

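For 9 of the 11 members the change from 1st-round to recovered cells differed between at least 1 pair of non-hair tissues. The rule was limma voom with an adjusted p under 0.05 and a difference of at least 1 on the log2 scale. Over the 6 comparisons together, it was passed in 19.4% of those of all genes and 46.4% of those of the other genes of the list. How many genes passed in at least 1 comparison was not counted, so the 9 are not read as particular to transporters. All values below are log2 differences in change between 2 tissues, first-named minus second, and no cause was tested. Slc12a8 had 5 such differences, namely 1.64 (bladder minus thymus), -3.30 (bladder minus vagina), 2.80 (trachea minus thymus), -2.15 (trachea minus vagina) and 4.94 (vagina minus thymus). The 5 differences of Slc15a1 were 1.94 (bladder minus trachea), 5.31 (bladder minus vagina), -1.93 (trachea minus thymus), 3.37 (trachea minus vagina) and -5.30 (vagina minus thymus). In Slc1a3, 5 pairs of tissues differed, with values of 3.35 (bladder minus thymus), 5.0 (bladder minus trachea), 4.73 (bladder minus vagina), -1.65 (trachea minus thymus) and -1.39 (vagina minus thymus). Slc43a2 had 5 such differences, namely 1.59 (bladder minus thymus), 1.8 (bladder minus trachea), 3.39 (bladder minus vagina), 1.59 (trachea minus vagina) and -1.79 (vagina minus thymus). The 4 differences of Slc44a4 were -3.74 (bladder minus thymus), 1.91 (bladder minus vagina), -4.38 (trachea minus thymus) and -5.64 (vagina minus thymus). In Slc6a14, 4 pairs of tissues differed, with values of -1.50 (bladder minus thymus), -1.34 (bladder minus vagina), -1.89 (trachea minus thymus) and -1.73 (trachea minus vagina). Slc6a4 had 5 such differences, namely 3.34 (bladder minus thymus), 3.98 (bladder minus trachea), 2.09 (bladder minus vagina), -1.89 (trachea minus vagina) and 1.24 (vagina minus thymus). The 5 differences of Slc6a6 were 3.98 (bladder minus trachea), 1.95 (bladder minus vagina), -3.84 (trachea minus thymus), -2.02 (trachea minus vagina) and -1.82 (vagina minus thymus). In Slco1a2, 6 pairs of tissues differed, with values of 2.69 (bladder minus thymus), 4.87 (bladder minus trachea), 8.55 (bladder minus vagina), -2.17 (trachea minus thymus), 3.69 (trachea minus vagina) and -5.86 (vagina minus thymus). Slc39a11 and Slc45a3 had none of the 6 possible differences. With 2 samples a group, no group could be searched for a sample standing apart.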

How the results depend on the processing

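With a log2 fold change of at least 2 in place of 1, the members called were 3 in trachea, 4 in vagina and 1 in whisker, the calls over tissue pairs 19 in the 1st and 29 in the 2nd round, and the differences in change 26. All other whole-table alternatives (edgeR quasi-likelihood, DESeq2, DESeq2 size factors, filters on low counts, fits on only the groups compared) left these counts within 1.5 times. Leaving out 1 sample at a time gave 8 to 9 members called in bladder, 4 to 5 in trachea, 6 to 8 in vagina, 5 to 7 in thymus, 5 in whisker, 32 to 37 and 44 to 46 calls over the pairs of the 1st and 2nd round and 42 to 44 differences in change. The lone sample left in a group is then assumed to vary like the other groups.

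With the replicate block, 8, 5, 7, 6 and 5 members were called in bladder, trachea, vagina, thymus and whisker, with 36, 46 and 44 calls over the pairs and the differences. Same-numbered samples correlated between -0.123 and 0.24 (median 0.019 over 45 pairs of groups), and not every pair was over 0.1, so the numbers were not taken to pair the samples. Among the 10 pairs of recovered groups, 7 were over 0.1, a hint from the data and not from the design.

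Values that changed sign were all uncalled. Slc39a11 in trachea was -0.022 with DESeq2, -0.021 with DESeq2 size factors, -0.009 with the stricter filter and -0.01 on only the groups compared. With 1 sample left out it ran from -0.022 to 0.026, Slc1a3 in thymus from -0.206 (or -0.149) to 0.295, Slc6a4 in trachea from -0.159 to 0.792, Slco1a2 in trachea from -0.244 (or -0.068) to 0.457, and Slc44a4 in whisker from -1.308 to 1.189 (or 1.016). Slc6a14 in vagina was called by edgeR (-1.006) and DESeq2 (-1.022). Of 605 values for single members, 580 kept direction and side of the threshold. By Spearman rank correlation the most alike gene was the same for 2 of the 11 members. The limits are 2 samples a group and, for Slc12a8, Slc6a4, Slc44a4 and Slco1a2, levels close to 3 counts in some groups.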
